A study of Homo sapiens with 6 samples.

Results

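The mRNAs described here encode 8 proteins of the mitochondrial route to cell death: CYCS, APAF1, CASP9, CASP6, DIABLO, AIFM1, XIAP and BIRC2. They were chosen by gene symbol as apoptosome components, caspases, inhibitor of apoptosis (IAP) genes and mitochondrial death factors, and matched to 8 of the 20289 Ensembl gene rows of the deposited expression table. All 8 were among the 10592 genes whose mean over the 6 libraries reached 1 FPKM (fragments per kilobase of transcript, scaled to library size), the level required for testing. RNA was sequenced from the established colorectal cancer line RKO, of human origin, carrying either a short hairpin RNA against TRMT6 (ShTRMT6, 3 libraries, cell type labelled TRMT6 knockdown) or a control hairpin (ShControl, 3 libraries, cell type labelled WT). TRMT6 pairs with the catalytic subunit TRMT61A to methylate adenosine in tRNA, and the series asks which mRNAs differ when it is depleted. The sources used here give neither the hairpin sequences nor the time after their introduction. Nothing in the labels ties the 3 libraries of a group to separate cultures; the spread behind each p-value is that between libraries, and may be technical.

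Cytochrome c, encoded by CYCS, carries electrons in the respiratory chain while it is held between the mitochondrial membranes. When it escapes into the cytosol it binds APAF1, which assembles into the apoptosome and activates the initiator caspase CASP9; executioner caspases then cut the cell's proteins. XIAP and BIRC2 belong to the IAP family, of which XIAP blocks caspases directly, and DIABLO (also called Smac) is a mitochondrial protein that displaces caspases from IAPs. AIFM1, apoptosis-inducing factor, is a mitochondrial flavoprotein needed for respiratory chain assembly that can also move to the nucleus during cell death.

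The targeted mRNA was low in every knockdown library: TRMT6 read 1.58, 1.73 and 1.09 FPKM in ShTRMT6, against 14.43, 17.96 and 16.85 FPKM in ShControl. The steps between low values were weakly defined. They give only a rough depth of 17.8 to 20.1 M fragments per ShTRMT6 library and 20.3 to 28.4 M per ShControl library (M, mega). At that depth APAF1, the lowest of the 8 genes, corresponds to about 300 to 500 fragments a library and CYCS to about 3000 to 8000. Pairs of libraries correlated across genes at 0.9893 to 0.9947 within a group and at 0.963 to 0.9818 across groups, on log2(FPKM + 1). Of 8 epithelial and intestinal markers, KRT19, CDH1, VIL1 and KRT20 were listed at 0 in all 6 libraries, and the summed level of the list was 200.99 to 213.63 FPKM in ShTRMT6 and 123.63 to 156.07 FPKM in ShControl, mostly KRT18. Fibroblast markers summed to at most 0.09 FPKM in ShTRMT6 and 1.11 FPKM in ShControl, and endothelial markers to at most 0.09 and 0.17 FPKM. Of the leukocyte markers CD3E was listed at 0 in all libraries and PTPRC reached 0.02 FPKM in 1 ShControl library. CD68, a lysosomal protein that other cells also make, was abundant in both groups.

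CYCS and XIAP rose in the knockdown cells and no member fell. CYCS averaged 96.8 ± 9.02 FPKM in ShTRMT6 and 46.0 ± 5.01 FPKM in ShControl, and XIAP 7.85 ± 0.232 and 4.35 ± 0.847 FPKM (SD, n = 3 each). The 6 other members had mean differences of 0.08 to 0.25 on the log2 scale, all toward ShTRMT6, and did not pass the test. Of the 8 members 2, or 25%, were called, all of them higher. Among all 10592 genes 35.4% were called, 19.3% higher and 16.1% lower, so the count of called members lies near the background and is no result about the list. The groups did not overlap for CYCS, XIAP, APAF1 and AIFM1, all higher in ShTRMT6, beside 26.2% of all genes tested that did not overlap in that direction, 22.1% in the other and 48.3% in either. The median log2 fold change of the 8 genes was 0.22, against 0.02 over all genes tested. Tests are limma's on log2(FPKM + 1), two-sided, with Benjamini-Hochberg adjustment over all genes tested and a threshold of 0.05. In RNA from whole cultures, a change in every cell and a change in part of the cells cannot be told apart.

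**Figure D1:**
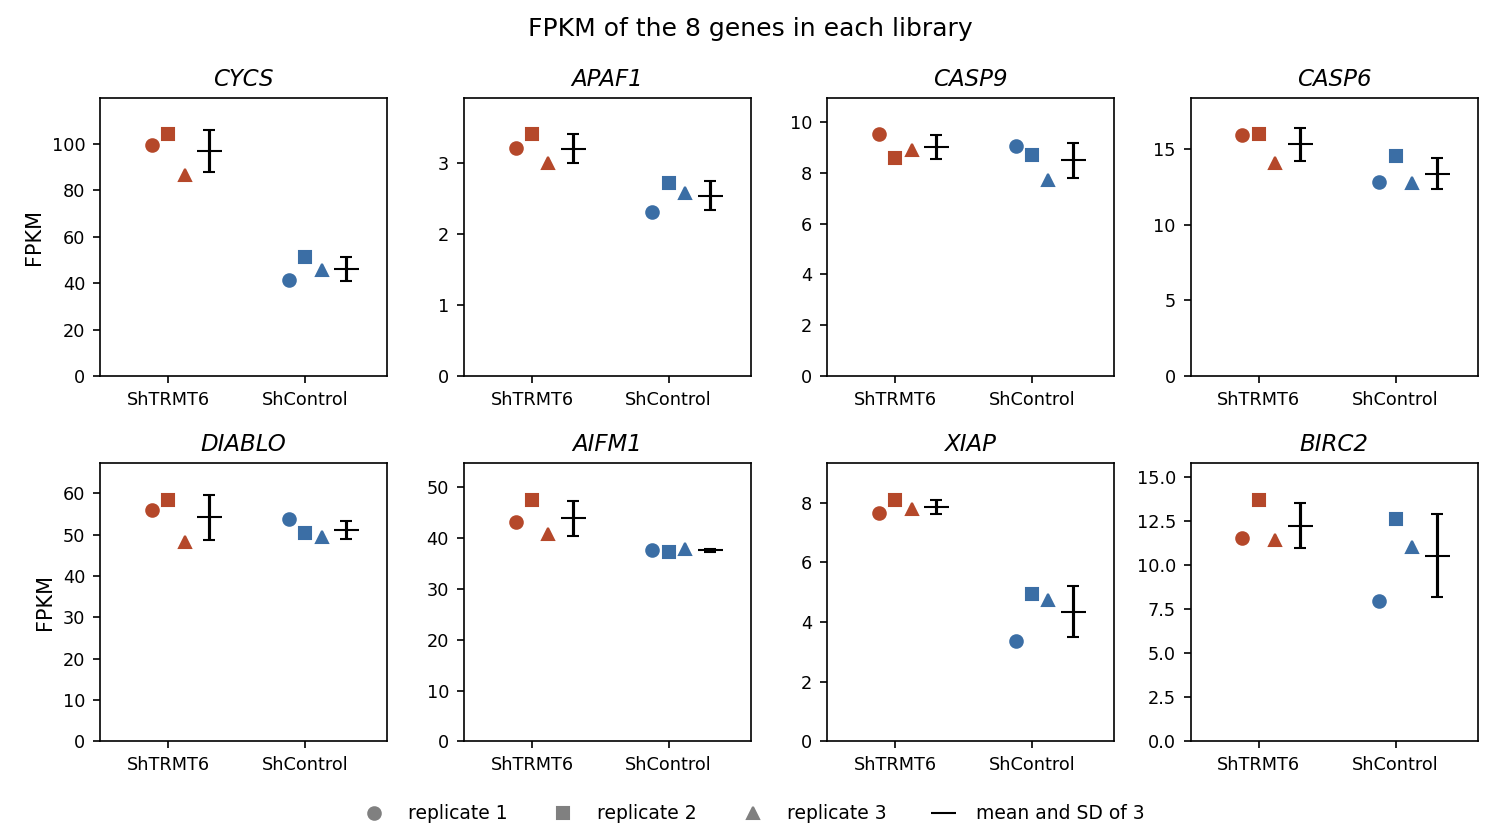
FPKM (vertical axes, each from 0) of the 8 genes in the 3 ShTRMT6 and 3 ShControl libraries; symbols mark replicate numbers, and the bar beside each group is its mean and SD. The groups stand apart for CYCS, XIAP, APAF1 and AIFM1 and overlap for CASP9, CASP6, DIABLO and BIRC2.

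CYCS, the apoptosome's ligand, had 99.57, 104.03 and 86.67 FPKM in the ShTRMT6 libraries and 41.19, 51.2 and 45.76 FPKM in the ShControl libraries. The lowest knockdown library was well above the highest control. The ratio of means was 2.10-fold and the log2 fold change 1.06 (SE 0.11, 95% interval 0.82 to 1.29, limma adjusted p = 3.26e-05), an absolute change larger than that of 99.1% of the genes tested. CYCS lies on chromosome 7, bases 25120091 to 25125361 of the minus strand in GENCODE release 29. That annotation also holds 40 CYCS pseudogenes, which are absent from the rows used here. At an assumed length of 75 bases, 1.19% of the windows of CYCS transcripts recur in 4 other genes, and fragments from those windows are of uncertain origin. HCCS, the lyase that attaches haem to cytochrome c and a gene added afterwards, averaged 22.7 ± 0.583 FPKM in ShTRMT6 and 21.8 ± 0.988 FPKM in ShControl and did not pass (log2 fold change 0.06, limma adjusted p = 0.676).

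APAF1, the scaffold of the apoptosome and a known transcriptional target of E2F1, was the least abundant member. It read 3.21, 3.4 and 2.99 FPKM in ShTRMT6 and 2.31, 2.71 and 2.58 FPKM in ShControl. All knockdown values exceeded all control values, by 1.26-fold in the means, yet the difference did not pass (log2 fold change 0.25, SE 0.12, 95% interval -0.01 to 0.51, limma adjusted p = 0.123). On the opposite strand, transcripts of ANKS1B share 8.18% of APAF1's windows; ANKS1B reached at most 0.08 FPKM in ShTRMT6 and 0.1 FPKM in ShControl.

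CASP9, the initiator caspase that the apoptosome recruits, had 9.51, 8.57 and 8.91 FPKM in ShTRMT6 and 9.04, 8.69 and 7.71 FPKM in ShControl. These values interleave, and the difference did not pass (log2 fold change 0.08, SE 0.11, 95% interval -0.16 to 0.32, limma adjusted p = 0.613). CASP6, an executioner caspase that cuts nuclear lamin A, read 15.89, 15.95 and 14.03 FPKM in ShTRMT6 and 12.79, 14.52 and 12.75 FPKM in ShControl. The lowest knockdown library fell within the control range, and the difference did not pass either (log2 fold change 0.18, SE 0.11, 95% interval -0.05 to 0.41, limma adjusted p = 0.2). The intervals allow at most 0.32 on the log2 scale for CASP9 and 0.41 for CASP6 in the upward direction. MCUB, transcribed from the opposite strand beside CASP6, shares 1.55% of its windows and had 14.54, 15.5 and 13.56 FPKM in ShTRMT6 and 14, 14.04 and 14.5 FPKM in ShControl; the strand setting was not given in the sources used here.

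DIABLO, the IAP antagonist, had 56.01, 58.53 and 48.15 FPKM in ShTRMT6 and 53.7, 50.48 and 49.51 FPKM in ShControl. The groups overlap, and the 95% interval of the log2 difference ran from -0.14 to 0.29 (log2 fold change 0.08, SE 0.10, limma adjusted p = 0.582). The annotation holds a second DIABLO gene that shares 25.74% of the windows; its row is listed at 0 in all 6 libraries, and how fragments were divided between the copies is uncertain. AC048338.1, on the same strand, shares 14.3% and had 0.88 FPKM in ShTRMT6 replicate 1 and 0 in the other libraries. On the opposite strand B3GNT4 shares 11.32% of the windows and had at most 0.51 FPKM in ShTRMT6 and 0.63 FPKM in ShControl. AIFM1 had 43.23, 47.55 and 40.76 FPKM in ShTRMT6 and 37.65, 37.25 and 37.81 FPKM in ShControl. Its control libraries were nearly equal (SD 0.288 FPKM) and all lay below the knockdown libraries. The difference of 1.17-fold did not pass (log2 fold change 0.21, SE 0.10, 95% interval 0.009 to 0.42, limma unadjusted p = 0.0419, adjusted p = 0.095). It did with the replicate number as a block (same log2 fold change, limma adjusted p = 0.0426).

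XIAP, the direct caspase inhibitor of the IAP family, had 7.66, 8.11 and 7.79 FPKM in ShTRMT6 and 3.38, 4.94 and 4.73 FPKM in ShControl. The knockdown libraries were close together and all above the controls, among which replicate 1 was lowest. The ratio of means was 1.81-fold and the log2 fold change 0.74 (SE 0.13, 95% interval 0.46 to 1.02, limma adjusted p = 0.00113); without ShControl replicate 1 it was 0.60 (limma adjusted p = 0.00215). BIRC2 (cIAP1), a ubiquitin ligase of TNF receptor signalling, had 11.53, 13.71 and 11.44 FPKM in ShTRMT6 and 7.96, 12.59 and 11.01 FPKM in ShControl. The same control library was lowest, and the groups overlap (log2 fold change 0.22, SE 0.15, 95% interval -0.10 to 0.53, limma adjusted p = 0.265). Without that library the BIRC2 difference was 0.05 (limma adjusted p = 0.772).

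Over all genes tested, GC-poor transcripts tended to be higher in ShTRMT6 (Pearson r = -0.39 between fold change and GC content; genes are not independent replicates). The longest coding transcripts of BIRC2, XIAP, CYCS, APAF1 and CASP6 hold 38.0%, 39.0%, 41.6%, 41.7% and 45.1% GC, below the median of 48.8% among genes tested, whereas those of AIFM1, CASP9 and DIABLO hold 49.8%, 52.8% and 55.9%. After each library's trend on GC content was removed, CYCS kept a log2 fold change of 0.89 (limma adjusted p = 2.1e-05) and XIAP one of 0.53 (limma adjusted p = 0.00141). The difference shrank to 0.09 for APAF1 (limma adjusted p = 0.492) and was -0.01 for BIRC2 (limma adjusted p = 0.968). For AIFM1 it was 0.26 and passed (limma adjusted p = 0.0236), and for DIABLO it passed only with the correction and the replicate block together (0.22, limma adjusted p = 0.0215).

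**Figure D2:**
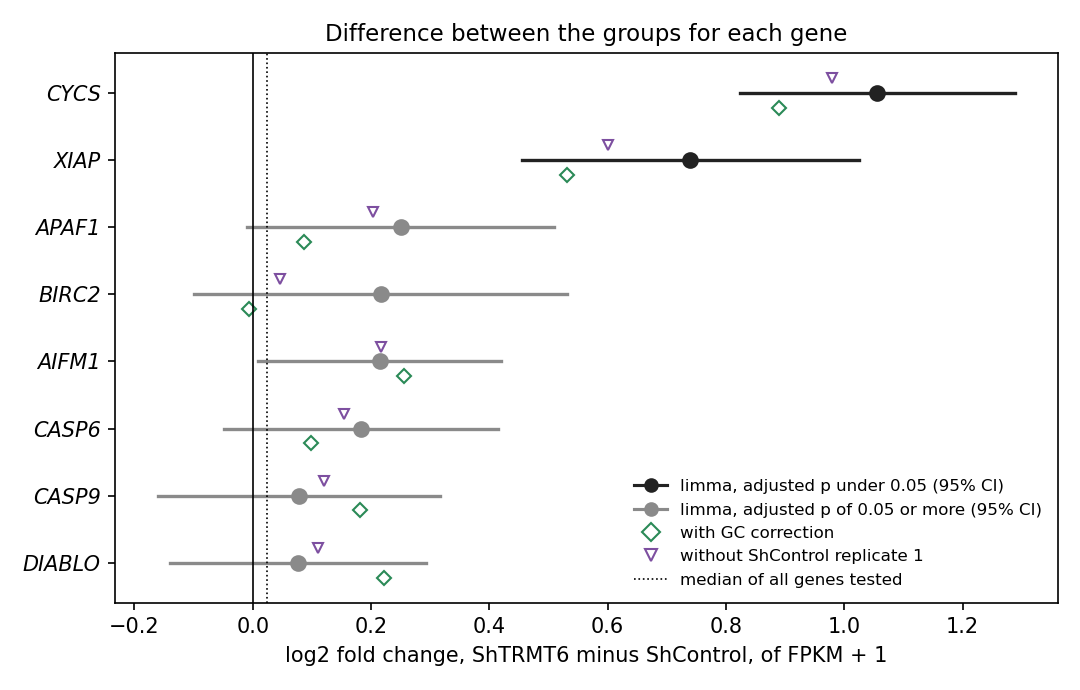
Log2 fold change of FPKM + 1 (horizontal axis, ShTRMT6 minus ShControl) for each gene; filled circles and bars are limma estimates with 95% intervals, diamonds the values with the GC correction, triangles those without ShControl replicate 1, and the dotted line is the median of all genes tested at 0.02. CYCS at 1.06 and XIAP at 0.74 stay right of 0.5 in all 3 settings, while BIRC2 is at 0.22 without and -0.01 with the GC correction.

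FPKM is scaled to gene length, so levels can be compared roughly between genes. GC content, annotated transcripts and shared windows also differ between these genes, and the order does not allow for them. In ShTRMT6 the order by mean FPKM was CYCS (96.8), DIABLO (54.2), AIFM1 (43.9), CASP6 (15.3), BIRC2 (12.2), CASP9 (8.997), XIAP (7.85) and APAF1 (3.20), and no 2 neighbours overlapped across their 3 libraries. In ShControl DIABLO (51.2) stood first with CYCS (46.0) next, and the 2 overlapped; BIRC2 (10.5) and CASP9 (8.48) overlapped as well, and the other neighbours did not. Within these 8 genes the mitochondrial factors CYCS, DIABLO and AIFM1 stood above CASP6, CASP9, XIAP, BIRC2 and APAF1 in both groups. The coefficient of variation within a group was 2.95% to 10.5% in ShTRMT6 and 0.768% to 22.4% in ShControl, highest for BIRC2 and for XIAP (19.5%) in ShControl.

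A ratio of 2 genes within a library does not depend on how the library was scaled, and 6 such ratios were compared. Ratios that contain CYCS or XIAP carry the differences of those genes given above and are not separate results. CYCS to APAF1, ligand to scaffold, was 31.0, 30.6 and 28.99 in ShTRMT6 and 17.8, 18.9 and 17.7 in ShControl, tight within each group. The log2 ratio differed by 0.73 (exact two-sided permutation p = 0.1, the smallest that 3 libraries against 3 allow; 0.12 adjusted over the 6 ratios). DIABLO to XIAP, antagonist to inhibitor, was 7.31, 7.22 and 6.18 in ShTRMT6 and 15.9, 10.2 and 10.5 in ShControl. It was lower in every knockdown library, with a log2 difference of -0.79 (exact permutation p = 0.1), which was -0.59 without ShControl replicate 1. With the GC correction it was -0.31. All GC-corrected ratios here use FPKM + 1, whereas the uncorrected ratios use FPKM itself, so the 2 kinds are not on the same scale. XIAP to CASP9, inhibitor to its initiator caspase, was 0.805, 0.946 and 0.874 in ShTRMT6 and 0.374, 0.568 and 0.613 in ShControl (log2 difference 0.79, exact permutation p = 0.1), and 0.35 with the GC correction. AIFM1 to CYCS averaged 0.454 ± 0.0183 in ShTRMT6 and 0.823 ± 0.0933 in ShControl (SD, n = 3 each; log2 difference -0.85, exact permutation p = 0.1). For CASP9 to APAF1 the values were 2.96, 2.52 and 2.98 in ShTRMT6 and 3.91, 3.21 and 2.99 in ShControl; the groups were barely apart (log2 difference -0.25, exact permutation p = 0.1), and the difference was 0.10 with the GC correction, opposite in sign. DIABLO to BIRC2 overlapped between the groups (means 4.45 ± 0.358 in ShTRMT6 and 5.08 ± 1.46 in ShControl, exact permutation p = 0.7).

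**Figure D3:**
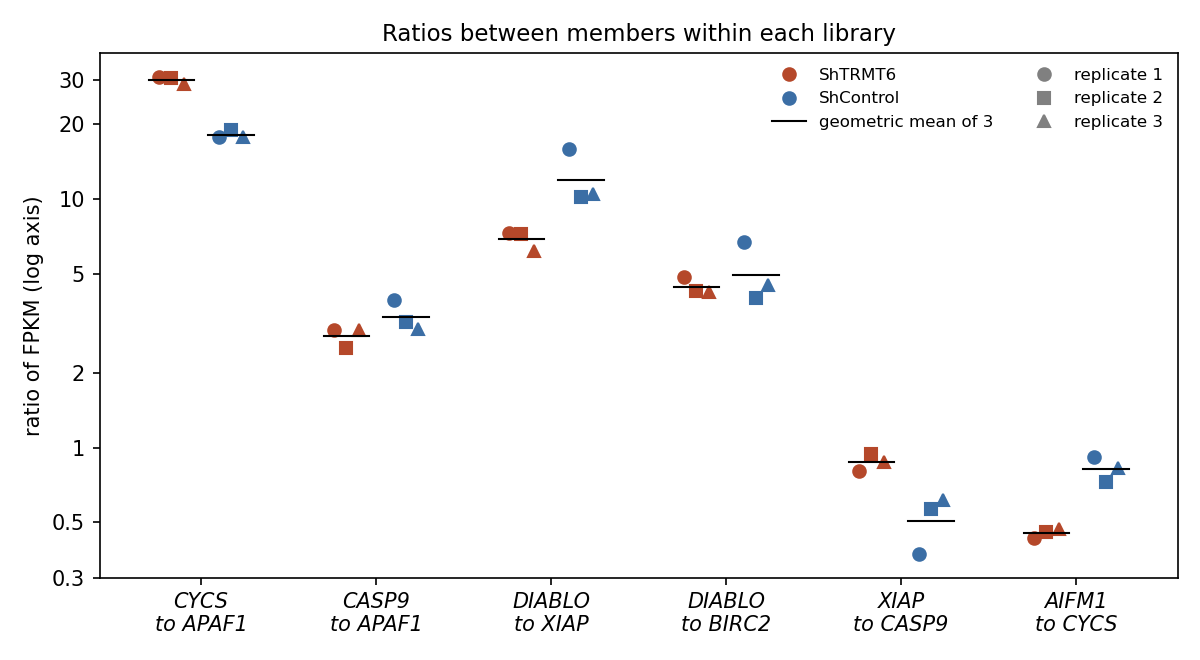
Ratios of FPKM between pairs of members (vertical axis, log scale) in the 3 ShTRMT6 and 3 ShControl libraries, with the geometric mean of each group as a line. CYCS to APAF1 lies at 28.99 to 31.0 in ShTRMT6 and 17.7 to 18.9 in ShControl, and DIABLO to XIAP at 6.18 to 7.31 in ShTRMT6 and 10.2 to 15.9 in ShControl.

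CYCS is a textbook target of NRF1 (nuclear respiratory factor 1), which binds GC-rich palindromic sites in promoters of respiratory genes, and its promoter is shown for that reason. The 250 bases before each member's RefSeq start sites (GRCh38.p14) were searched on both strands for 5 words. They were GCATGCGC and a longer consensus of NRF1, which can overlap each other, TGACGTCA of CREB, CCGGAAGT of ETS factors such as GABPA, and TTTGGCGC of E2F, held by 2.63%, 5.07%, 1.65%, 3.42% and 0.55% of all 35116 such windows. All 8 genes had at least 1 window. GCATGCGC occurred 162 to 169 bases before the CYCS start and 75 to 82 bases before that of AIFM1. TGACGTCA occurred before 1 of the 2 starts of BIRC2. No other member's window held any of the 5 words, XIAP's 3 windows included. A match is a description of these letters, not a measured binding site. The windows of CYCS and AIFM1 are printed because they share the NRF1 word, in capitals; of the pair CYCS rose and AIFM1 did not pass. The window before the most upstream start of XIAP is shown because XIAP is the other gene that rose; it holds 4 CpG pairs, against 31 in CYCS and 23 in AIFM1 (median 11 over all windows).
CYCS, chr7:25125261-25125510, minus strand: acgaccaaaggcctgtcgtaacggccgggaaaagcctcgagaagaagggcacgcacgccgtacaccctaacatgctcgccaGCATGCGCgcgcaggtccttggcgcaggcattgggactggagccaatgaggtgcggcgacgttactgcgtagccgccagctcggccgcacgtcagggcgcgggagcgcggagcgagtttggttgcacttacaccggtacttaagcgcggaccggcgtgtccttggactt
AIFM1, chrX:130165842-130166091, minus strand: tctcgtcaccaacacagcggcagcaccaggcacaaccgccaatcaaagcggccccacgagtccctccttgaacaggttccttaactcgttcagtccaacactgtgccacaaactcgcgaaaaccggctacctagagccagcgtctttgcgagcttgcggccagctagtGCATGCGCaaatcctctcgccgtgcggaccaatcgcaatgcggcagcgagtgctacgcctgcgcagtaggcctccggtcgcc
XIAP, chrX:123859458-123859707, plus strand: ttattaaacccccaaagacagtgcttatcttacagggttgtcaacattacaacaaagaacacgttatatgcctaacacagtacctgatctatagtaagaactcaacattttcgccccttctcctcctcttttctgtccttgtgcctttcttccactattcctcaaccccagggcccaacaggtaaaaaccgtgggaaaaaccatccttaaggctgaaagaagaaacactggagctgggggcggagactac

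Other genes of the pathway were grouped in 9 lists by function. Their counts stand beside 19.3% of all genes tested called higher and 16.1% called lower, and no list was tested against that background. Of 7 tested transcription regulators of such genes, 1 was called higher and 2 lower (14.3% and 28.6%). E2F1 fell to 19.4 ± 0.0981 FPKM in ShTRMT6, against 32.9 ± 4.95 FPKM in ShControl (log2 fold change -0.73, SE 0.11, limma adjusted p = 0.000482). NRF1, chosen after its value was seen, averaged 6.84 ± 0.261 FPKM in ShTRMT6 and 8.95 ± 0.112 FPKM in ShControl (log2 fold change -0.34, limma adjusted p = 0.0227), a call that ended when either of ShTRMT6 replicates 1 and 2 or either of ShControl replicates 2 and 3 was left out (up to adjusted p = 0.0921). GABPA, an ETS factor of respiratory gene promoters, was called higher at 3.75 ± 0.445 FPKM in ShTRMT6, against 2.46 ± 0.616 FPKM in ShControl (limma adjusted p = 0.025). The GABPA call ended in 7 of 16 alternatives, among them the GC correction (limma adjusted p = 0.123) and leaving out ShTRMT6 replicate 1 or 2 or ShControl replicate 1 or 3 (up to 0.0886).

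Among 4 other caspases tested, 2 rose and 1 was called lower, beside 19.3% and 16.1% of all genes tested. The inflammatory caspase CASP4 averaged 92.2 ± 10.6 FPKM in ShTRMT6 and 53.8 ± 4.15 FPKM in ShControl (log2 fold change 0.76, limma adjusted p = 0.000259), and the death-receptor initiator CASP8 23.4 ± 4.23 and 13.7 ± 1.14 FPKM (log2 fold change 0.72, limma adjusted p = 0.00117). CASP2, an initiator-type caspase chosen after its value was seen, was called lower at 23.7 ± 1.43 FPKM in ShTRMT6, against 28.7 ± 1.52 FPKM in ShControl (limma adjusted p = 0.0474), and the call ended whichever library was left out (adjusted p 0.052 to 0.194). The median log2 fold change of these 4 caspases was 0.44.

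Of the other IAP genes, BIRC5 (survivin), which also serves the chromosomal passenger complex in mitosis, fell to 43.1 ± 1.97 FPKM in ShTRMT6, against 55.5 ± 3.00 FPKM in ShControl (log2 fold change -0.36, SE 0.09, limma adjusted p = 0.0104). BIRC3 and BIRC6, chosen after their values were seen, did not pass (log2 fold changes 0.15 and -0.10, limma adjusted p = 0.445 and 0.562). Among IAP antagonists, the protease HTRA2, chosen afterwards, had 27.82, 29.29 and 28.1 FPKM in ShTRMT6 and 29.83, 24.31 and 23.34 FPKM in ShControl and did not pass (limma adjusted p = 0.338); without ShControl replicate 1, and with the GC correction, it did (log2 fold changes 0.24 and 0.31, adjusted p = 0.0486 and 0.0111). SEPTIN4, whose ARTS isoform binds XIAP, was called lower, at 0.773 ± 0.176 FPKM in ShTRMT6 and 1.52 ± 0.135 FPKM in ShControl (limma adjusted p = 0.0109); the table gives 1 value per gene, so isoforms cannot be told apart.

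With the GC correction 1 of 9 apoptosome regulators was called lower, and 2 with the replicate block as well. Those settings called 38.6% and 47.7% of all genes tested, in either direction. In the main fit 4 of the 9 rose and none fell (median log2 fold change 0.23), beside 19.3% and 16.1% of all genes tested. They were AVEN, which binds APAF1 and inhibits its assembly (5.78 ± 0.742 FPKM in ShTRMT6, 3.56 ± 0.236 FPKM in ShControl, log2 fold change 0.57, limma adjusted p = 0.00377), and the heat shock proteins HSPB1 (log2 fold change 0.76, adjusted p = 0.000497), HSPA4 (0.64, adjusted p = 0.000814) and HSPA8 (0.51, adjusted p = 0.00157), of which HSPB1 is known to bind cytochrome c; HSPA8 was outside the rule for named genes and was added afterwards. Among 10 genes of mitochondrial import, processing and retention 4 rose and none fell (median 0.10), beside the same shares of all genes. The inner membrane protease OMA1 had 5.33, 5.24 and 5.39 FPKM in ShTRMT6 and 1.48, 2.51 and 2.23 FPKM in ShControl (2.57-fold, log2 fold change 1.06, SE 0.14, limma adjusted p = 0.000191). OPA1, the dynamin that keeps cristae junctions narrow and is cut by OMA1 and YME1L1, rose by 0.60 (adjusted p = 0.00886) and YME1L1 by 0.59 on the log2 scale (adjusted p = 0.000935). PARL, the protease that matures DIABLO, was chosen after its value was seen and averaged 57.8 ± 6.32 FPKM in ShTRMT6 and 42.6 ± 2.39 FPKM in ShControl (log2 fold change 0.43, limma adjusted p = 0.00699).

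None of 5 tested genes of the AIF family and its nuclease partners was called by limma, and MIF alone had an unadjusted p under 0.05. With the GC correction 3 were called higher, beside 2315 of all 10592 genes tested. With the block as well 4 were called higher, beside 2839 of all genes tested. MIF averaged 773.3 ± 34.1 FPKM in ShTRMT6 and 647.8 ± 99.8 FPKM in ShControl (limma adjusted p = 0.0731), and passed with the replicate block (adjusted p = 0.00467) and without ShControl replicate 1 (adjusted p = 0.00485); the cyclophilin PPIA averaged 1652 ± 90.2 and 1683 ± 33.0 FPKM (adjusted p = 0.831). Among 9 caspase substrates 1 rose and 3 fell, but 1 fell when ShTRMT6 replicate 1 or 2 or ShControl replicate 2 was left out. In those settings 23.1%, 22.6% and 33.2% of genes tested were called, in either direction. The nuclear lamins moved in opposite directions: LMNA, cut by CASP6, had 98.54, 94.67 and 95.58 FPKM in ShTRMT6 and 64.35, 55.22 and 53.52 FPKM in ShControl (log2 fold change 0.73, SE 0.10, limma adjusted p = 0.000177), whereas LMNB1 had 13.73, 15.4 and 12.72 FPKM in ShTRMT6 and 24.26, 24.3 and 23.84 FPKM in ShControl (log2 fold change -0.75, SE 0.10, limma adjusted p = 0.000247). DFFA, the inhibitor of the caspase-activated nuclease, was called lower (log2 fold change -0.32, adjusted p = 0.0258), a call that ended without any single library except ShControl replicate 3 (adjusted p up to 0.075). Of 8 signalling partners of BIRC2 and XIAP, RIPK2, a kinase that XIAP ubiquitinates, rose (44.9 ± 4.21 FPKM in ShTRMT6, 26.8 ± 3.84 FPKM in ShControl, log2 fold change 0.73, adjusted p = 0.00059). TRAF2, which brings BIRC2 to TNF receptors, was called lower (33.4 ± 0.533 and 41.9 ± 2.26 FPKM, log2 fold change -0.32, adjusted p = 0.0186), but not with the GC correction (-0.14, adjusted p = 0.176) or without ShTRMT6 replicate 1 or 2 (adjusted p up to 0.0643). Over all 9 lists, 13 of 58 tested genes were higher and 9 lower, 22.4% and 15.5%, beside 19.3% and 16.1% of all genes tested, and their median log2 fold change was 0.06.

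**Figure D4:**
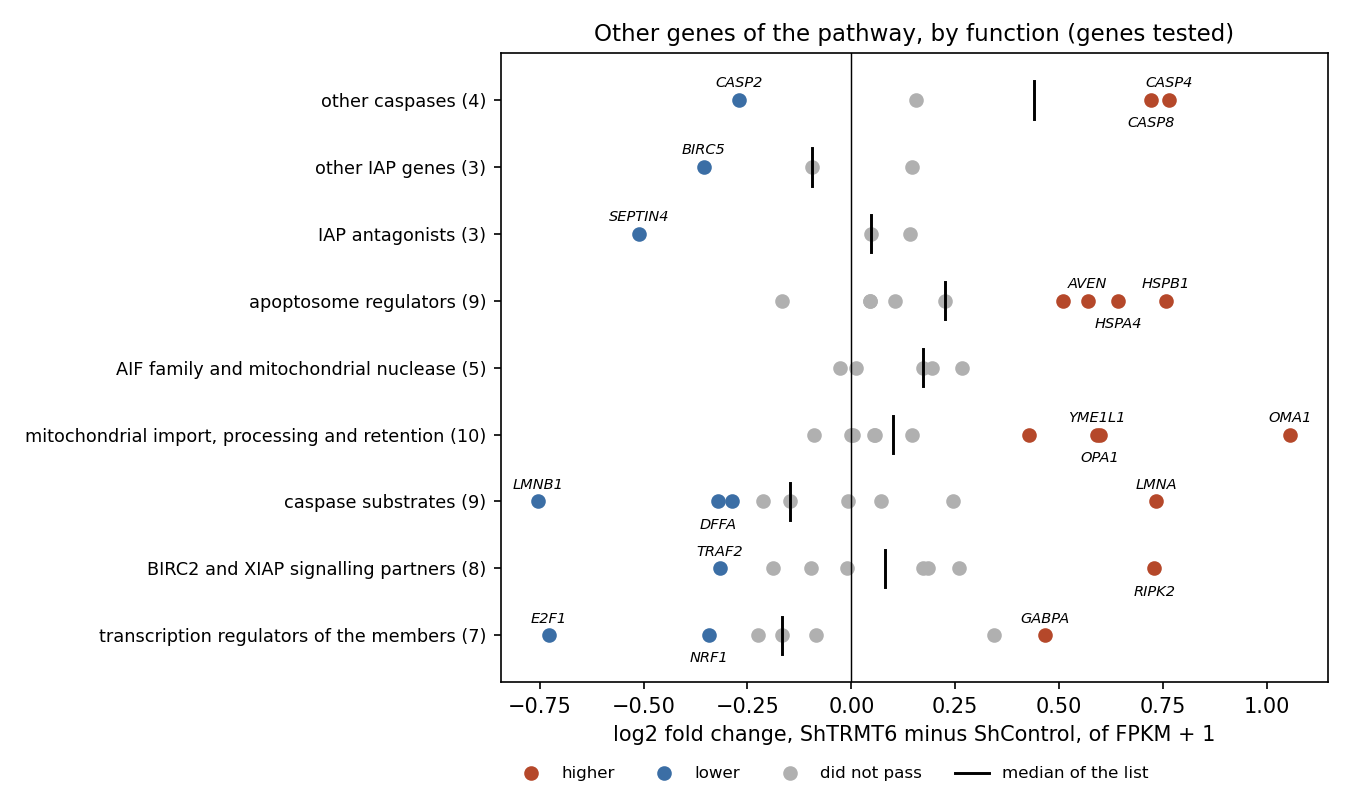
Log2 fold change of FPKM + 1 (horizontal axis, ShTRMT6 minus ShControl) of the 58 tested genes in 9 functional lists, with the number tested in parentheses; red genes were called higher, blue lower and grey did not pass, and the black tick is the list's median. CASP4, OMA1 and LMNA lie farthest right in their lists at 0.76, 1.06 and 0.73, and LMNB1 and E2F1 farthest left at -0.75 and -0.73.

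The genes whose log2(FPKM + 1) followed CYCS most closely over the 6 libraries, by Pearson correlation, were CRNKL1 (r = 0.9995) and CCDC6 (r = 0.9994). CRNKL1 had 12.47, 12.8 and 10.92 FPKM in ShTRMT6 and 5.05, 6.48 and 5.86 FPKM in ShControl. For XIAP they were EXOC4 (r = 0.9993) and B4GALT6 (r = 0.9985). B4GALT6 had 14.92, 15.11 and 15.1 FPKM in ShTRMT6 and 6.43, 9.64 and 8.98 FPKM in ShControl, lowest in ShControl replicate 1 like XIAP. These genes were picked by likeness over the same 6 libraries. Such shared patterns follow from the choice and are not separate results. EXOC4 did not pass (limma adjusted p = 0.0614) but did with the replicate block (adjusted p = 0.0359). Correlations over 6 libraries in 2 groups are often high: 15.6% of all genes tested had r above 0.9 with CYCS and 13.9% with XIAP. The share was 16.9% with APAF1 and 7.22% with AIFM1, which were not called. For the members whose groups overlap it was 8.1% with CASP6, 3.98% with BIRC2, 0.595% with CASP9 and 0.453% with DIABLO. The closest genes were DIS3 and MTMR6 for APAF1, ZNHIT2 and RAB11FIP4 for CASP9, CMSS1 and PTPRE for CASP6, ANXA5 and MTFR2 for DIABLO, ZNF37A and SAMD12 for BIRC2, and ZNF92 and ERRFI1 for AIFM1, with r from 0.9773 to 0.9995.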

How the data were processed

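RNA sequencing of 6 RKO libraries was deposited by the authors as 1 table of FPKM values by Ensembl gene with a column for each library, as the file headers show. Tools listed, per the submitters' processing notes, are StringTie 1.3.1, RSEM, HISAT2, fastp 0.18.0 and Bowtie2 2.2.8, with no role stated; the build, annotation and strand setting are not given in the sources used here. Columns named SH and NC were read as ShTRMT6 and ShControl, with their numbers as replicate numbers; the names do not spell out the groups, and low TRMT6 in the SH columns was already known, so the TRMT6 check is not independent of this reading. Symbols came from a gene name table (20257 identifiers matched); coordinates, lengths and GC content came from GENCODE release 29 (20171 matched), whose build may differ from the authors'; promoters came from RefSeq (GRCh38.p14).

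FPKM values are not counts, so limma 3.58.1 (R 4.3.3) was fitted to log2(FPKM + 1) of all genes averaging 1 FPKM or more, with a trended variance prior, and was tested on simulated data. These fold changes understate the change of low genes. Depth was estimated from the step size of low values in genes with 1 transcript of at most 1000 bases, assuming annotated lengths, and limits precision only roughly. Each estimate rests on 82 to 94 genes. The mean cosine, which scores how well values fall on whole steps, was 0.14 in ShControl replicate 2. It was 0.31 to 0.37 in the other libraries.

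The members, lists and tests were chosen with earlier results of these data known. Some genes of these pathways are not reported here and are not counted in the lists; they were taken out after values were known. Named genes were the 8 members; from each list up to 3 called genes with the largest absolute log2 fold change, or the 2 of highest mean where none was called; and the 2 genes closest to each member by correlation. HCCS, CASP2, HTRA2, NRF1, PARL, HSPA8, BIRC3, BIRC6, CASP1 and NAIP were added after their values were seen; CASP2 and NRF1 meet the rule only in the shortened lists. Libraries of the same replicate number deviated together (correlations across genes of 0.21, 0.36 and 0.17 for numbers 1, 2 and 3; -0.288 to 0.094 between different numbers), so a replicate block was run as an alternative, although no label explains the numbers. Also tried were smaller pseudocounts (0.1 and 0.5), no filter, a mean of at least 5 FPKM, quantile and median-of-ratios scaling, other variance priors, a GC correction (a loess trend per library), and each library left out in turn.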

Additional observations from a re-analysis of the deposited data

How the results depend on the processing

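The calls of CYCS and XIAP held in all 17 alternatives, with log2 fold changes of 0.89 to 1.13 (limma adjusted p at most 0.00435) and 0.53 to 0.86 (at most 0.0154). CASP9, CASP6, APAF1 and BIRC2 passed in none. With the replicate block AIFM1 passed (0.21, adjusted p = 0.0426), and it changed no other member's call. AIFM1 also passed with the GC correction (0.26) and with both together (0.26, adjusted p = 0.00726), as did DIABLO with both (0.22). With both, 4 members were higher, beside 2839 of all 10592 genes tested. These settings call more of all genes. The share called in either direction was 35.4% in the main fit and 38.6% with the GC correction. It was 46.8% with the block and 47.7% with both. BIRC2 changed sign with the GC correction, alone or with the block (-0.006 each). With the GC correction, taken on log2(FPKM + 1), the 6 log2 ratios were 0.81 (CYCS to APAF1), 0.10 (CASP9 to APAF1), -0.31 (DIABLO to XIAP), 0.23 (DIABLO to BIRC2), 0.35 (XIAP to CASP9) and -0.63 (AIFM1 to CYCS). The main ratios have no pseudocount, so the pseudocount differs as well as the correction. The members' own log2 fold changes use FPKM + 1 both without and with the correction. Those of CYCS and APAF1 were 1.056 and 0.25 without it, and 0.89 and 0.086 with it, almost equally far apart. DIABLO and XIAP had 0.077 and 0.739 without it, and came closer with it, at 0.222 and 0.531. CASP9 and APAF1 had 0.078 and 0.25 without it, and 0.182 and 0.086 with it, in the opposite order. The remaining ratios were not compared in this way. Leaving out 1 library at a time gave 2 members higher and 0 lower each time, 12 to 14 higher and 4 to 7 lower genes over the context lists (4 without ShTRMT6 replicate 1 or 2, 5 without ShControl replicate 2), and log2 ratios of 0.71 to 0.76, -0.33 to -0.14, -0.91 to -0.59, -0.31 to 0.06, 0.56 to 0.92 and -0.94 to -0.77 in the same order. Over all genes the count of calls, 3746, was 2443 without ShTRMT6 replicate 1 and 2396 without replicate 2. Among the other named genes BIRC3 (-0.12) and HCCS (-0.10) changed sign with the GC correction, with or without the block, and PPIA without ShTRMT6 replicate 3 (0.015, range -0.063 to 0.015 over the libraries left out); none of these was called. With no filter the OPA1 call was lost (adjusted p = 0.059). APAF1 was not tested with a mean of at least 5 FPKM, which it does not reach. Replicate spread, and for APAF1 the low level, limit how small a difference can be seen.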

Other observations

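CASP1, the inflammatory caspase that matures interleukins, lay below the level required for testing. It read 0.34, 0.29 and 0.21 FPKM in ShTRMT6 and 0.03, 0.07 and 0.03 FPKM in ShControl, which do not overlap, at very low values. With no filter on low values, when CASP1 was also tested, 3 of the other caspases were called higher, against 2 with the filter. Over all genes 1570 of 15015 tested were called higher with no filter, and 2042 of 10592 with it. NAIP, an IAP family member that senses bacterial proteins, had 0.66, 0.87 and 0.6 FPKM in ShTRMT6 and 0.4, 0.84 and 0.63 FPKM in ShControl, which overlap. CASP5, CASP12 and CASP14 were listed at 0 in all 6 libraries.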
